A study of Homo sapiens with 6 samples.

Results

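Integrins and laminins were taken as the protein-coding genes whose symbols name an integrin alpha or beta chain or a laminin alpha, beta or gamma chain. The rule found 38 such genes among the 20330 Ensembl genes of the deposited tables: 18 integrin alpha chains, 8 integrin beta chains, 5 laminin alpha chains, 4 laminin beta chains and 3 laminin gamma chains. They were followed in U251, an established human glioblastoma line, by RNA sequencing of 2 groups with 3 libraries each. The groups were labelled as control U251 cells and as U251 cells carrying stable overexpression of the long noncoding RNA XLOC013218. What the control cells carry, the promoter of the overexpression construct and whether either group is a clone or a mixed population are points not given in the sources used here. Replicates are called independent in the design text, which names no separate cultures, so the p-values measure the spread between these libraries, which may be technical.

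Integrins are transmembrane receptors built from an alpha and a beta chain, and they tie the extracellular matrix to the actin cytoskeleton. The beta chain largely sets which cytoplasmic adaptors bind, and the pair sets the ligand: laminins, collagens, fibronectin and other RGD-containing proteins, or the latent form of TGF-beta. Laminins are cross-shaped trimers of an alpha, a beta and a gamma chain, the main organising proteins of basement membranes. Glioma cells invade along basement membranes of blood vessels and along white matter, and integrins are among the receptors they use.

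Of the 38 genes, 21 reached a mean of 1 FPKM (fragment number corrected for transcript length and library depth) over the 6 libraries and were tested. The other 17 lay below that level, and of these ITGAD was listed at 0 in all 6 libraries. Of the chains tested, 9 were integrin alpha, 5 integrin beta, 3 laminin alpha, 3 laminin beta and 1 laminin gamma. FPKM is a level per transcript length, so chains can be set side by side. The most abundant alpha chain, ITGA3, averaged 267 ± 2.55 FPKM in control cells (SD, n = 3, as for all means that follow), and the most abundant beta chain, ITGB1, averaged 205 ± 16.9 FPKM. Laminin chains lay lower, up to 72.1 ± 6.82 FPKM for LAMC1. By these levels 12 of the 24 integrin pairs considered and 6 of the 14 laminin trimers considered had every chain at 1 FPKM or more in the control mean. The same 12 pairs and 6 trimers met that level in the overexpression mean.

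**Figure D1:**
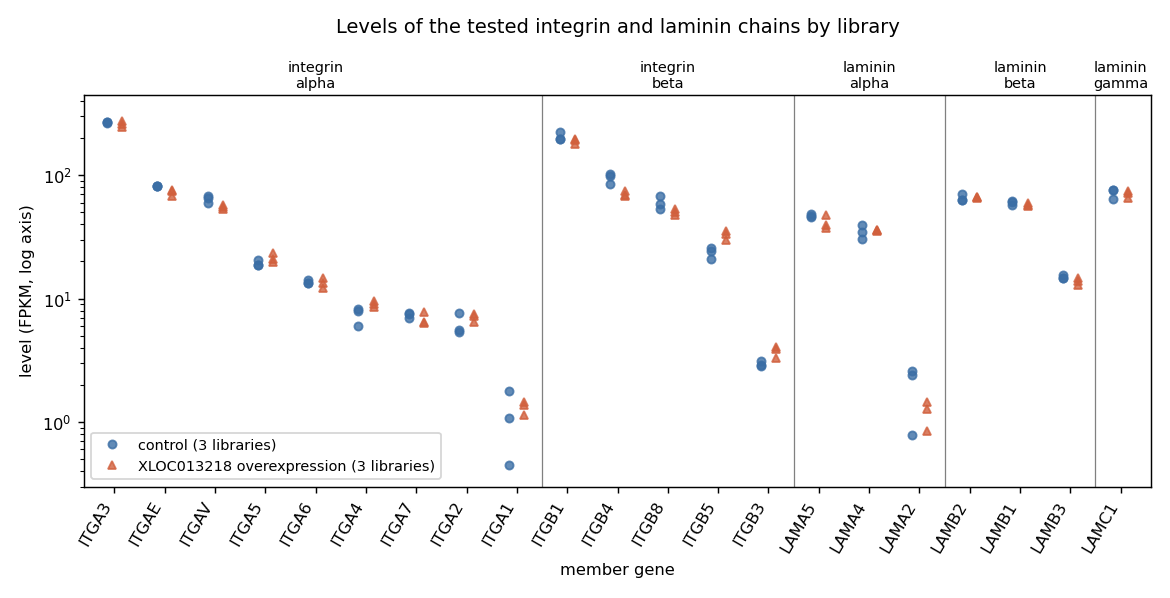
Level of each tested chain in every library, on a log axis in FPKM, with control libraries and overexpression libraries in separate colours. ITGA3 and ITGB1 stand at the top of the integrins and LAMC1, LAMB2 and LAMB1 at the top of the laminins in both groups.

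None of the 21 tested chains passed an adjusted p of 0.05 in limma (Benjamini-Hochberg over the 11731 genes tested), where 0.52% of all tested genes passed. At an unadjusted limma p under 0.05 there were 8 chains, against 12.7% of all tested genes. Of these, 3 were higher in overexpressing cells (5.81% of all tested genes) and 5 were lower (6.9%). The 3 overexpression values lay wholly above or wholly below the 3 control values for 7 chains, against 18.9% of all tested genes: 3 chains lay above (8.81%) and 4 below (10.1%). All 7 were integrins, 4 of the 5 tested beta chains and 3 of the 9 tested alpha chains, while each of the 7 tested laminin chains overlapped between the groups. The count of chains without overlap was 11 when control replicate 2 was left out (25.8% of all tested genes) and 11 when control replicate 3 was left out (33.2%). It was 8 without control replicate 1 (27.6%). Omitting overexpression replicate 1 gave 10 (31.3%), omitting replicate 2 of that group gave 9 (27.4%), and omitting its replicate 3 gave 9 (28%). The median log2 fold change was -0.05 over the 21 chains and -0.0008 over all tested genes.

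**Figure D2:**
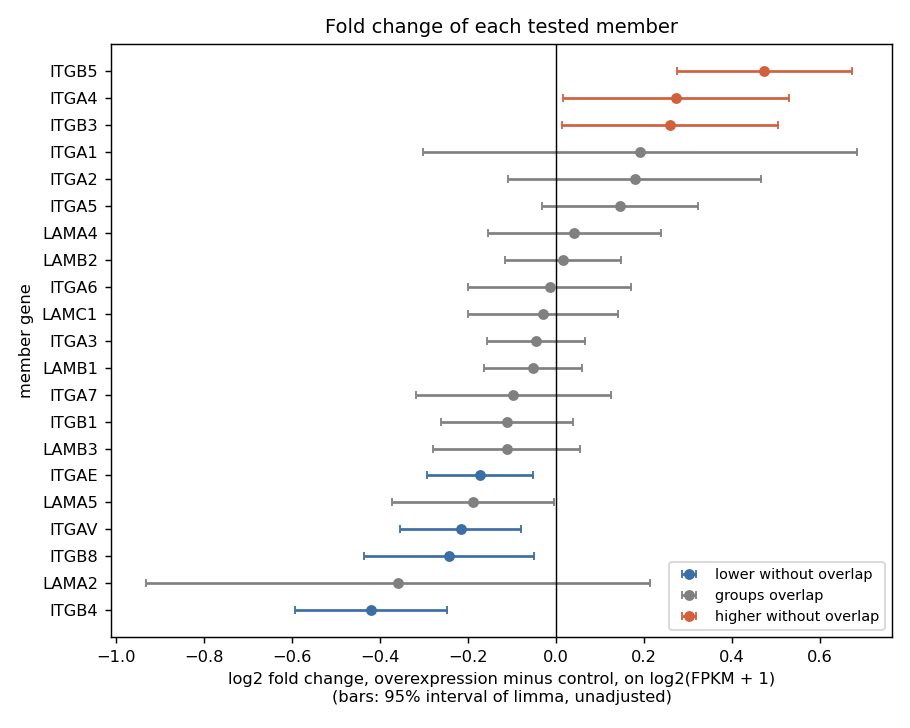
Log2 fold change of overexpression over control on the log2(FPKM + 1) scale for the 21 tested chains, each with its 95% confidence interval from limma. ITGB5 lies farthest to the right at 0.47 and ITGB4 farthest to the left at -0.42.

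Promoter windows are shown for ITGAV, the alpha chain common to several of the receptors described next, for ITGB1, the most abundant beta chain, and for LAMA5, the laminin chain with the lowest p. They were read from RefSeq promoter windows of GRCh38.p14, chosen after the values were seen, and end before the annotated exons of each gene. Capitals mark a GC box, searched as GGGCGG on both strands, so that a match on the other strand reads CCGCCC. The ITGAV window (chr2:186589806-186590055, plus strand) holds 0 GC boxes, the ITGB1 window (chr10:32958233-32958480, minus strand) holds 3, and the LAMA5 window (chr20:62367313-62367562, minus strand) holds 5.
ITGAV: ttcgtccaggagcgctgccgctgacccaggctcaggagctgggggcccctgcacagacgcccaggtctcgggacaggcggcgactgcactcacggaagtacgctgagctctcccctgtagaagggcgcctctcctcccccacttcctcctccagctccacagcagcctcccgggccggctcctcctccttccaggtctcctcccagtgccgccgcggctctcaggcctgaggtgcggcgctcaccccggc
ITGB1: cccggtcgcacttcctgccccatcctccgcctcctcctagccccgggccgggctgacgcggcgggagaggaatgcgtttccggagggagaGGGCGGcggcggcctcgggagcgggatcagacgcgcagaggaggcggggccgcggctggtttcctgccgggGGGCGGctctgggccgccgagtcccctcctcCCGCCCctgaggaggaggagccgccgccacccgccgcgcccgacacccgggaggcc
LAMA5: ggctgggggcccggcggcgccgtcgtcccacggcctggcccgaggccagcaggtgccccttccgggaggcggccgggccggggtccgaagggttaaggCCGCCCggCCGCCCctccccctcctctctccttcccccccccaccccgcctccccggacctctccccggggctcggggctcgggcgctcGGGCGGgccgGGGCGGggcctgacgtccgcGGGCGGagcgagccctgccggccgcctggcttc
RefSeq windows were found for 26 of the 38 chains, and 14 of these (53.85%) held a GC box in the 250 bases before the start, against 42.64% of all 35116 windows of that length. A CCAAT box (CCAAT) was present in 15.38% of the chains' windows and 32.01% of all windows. An AP-1 site (TGANTCA) was present in 3.85% against 6.57%, and a TATA box (TATAAA) in 0 of the 26 windows against 10.72% of all. LAMA3 alone held an AP-1 site, in a window 183577 bases from its annotated principal start. For each chain the window nearest a principal start was used, whereas the set of all windows can hold several of the same gene. All motifs were searched on both strands. GC content was 70.8% in the ITGAV window, 78.2% in the ITGB1 window and 82.8% in the LAMA5 window. A match to these letters is a description of the window, with no binding measured.

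Among the receptors, the beta chains best known as partners of ITGAV had log2 fold changes of opposite sign, none past the threshold. ITGB5 (ENSG00000082781, chromosome 3), which forms the vitronectin receptor alpha v beta 5, measured 20.9, 24.2 and 25.6 FPKM in control cells (replicates 1, 2 and 3 in order, as in all such lists) and 35.6, 30.1 and 33.6 FPKM in overexpressing cells. All 3 overexpression values lay above all 3 control values. The means were 23.6 ± 2.40 FPKM and 33.1 ± 2.80 FPKM, a log2 fold change of 0.47 (SE 0.0885, 95% interval 0.27 to 0.67). This had an adjusted p of 0.0570 in limma and was rank 87 of the 11731 tested genes by p. It passed when only genes averaging 5 FPKM or more were tested (limma adjusted p = 0.0446) and when libraries were weighted by quality (limma adjusted p = 0.0253). Over all alternatives its limma adjusted p ranged from 0.0253 to 0.266.

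ITGB8 encodes the chain of alpha v beta 8, a receptor for latent TGF-beta in the brain. Its control values were 53.03, 58.5 and 67.6 FPKM and its overexpression values 53.02, 49.9 and 47.4 FPKM. The groups did not overlap, but the nearest values differed only in the second decimal. The means were 59.7 ± 7.37 and 50.1 ± 2.82 FPKM, a log2 fold change of -0.24 (95% interval -0.44 to -0.05, limma adjusted p = 0.280), or -0.15 without control replicate 3. ITGB3, the chain of the other vitronectin receptor, was low, at 2.90, 2.82 and 3.14 FPKM in control cells and 4.02, 3.31 and 3.89 FPKM in overexpressing cells. Its 3 overexpression values were all above its control values, with a log2 fold change of 0.26 (95% interval 0.01 to 0.51, limma adjusted p = 0.370). The protein-coding gene AC068234.1 overlaps ITGB3 on the same strand, so reads may not be cleanly split between them. ITGB6, another partner of ITGAV, was under the level for testing, at 0.66 to 1.13 FPKM in control cells and 0.06 to 0.86 FPKM in overexpressing cells, with overlap.

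ITGAV itself (ENSG00000138448, chromosome 2) measured 65.5, 59.5 and 67.4 FPKM in control cells and 52.8, 54.9 and 57.2 FPKM in overexpressing cells. Every overexpression value was below every control value, and the log2 fold change was -0.22 (95% interval -0.35 to -0.08, limma adjusted p = 0.173). Set against each other within a library, the 4 beta chains ITGB3, ITGB5, ITGB6 and ITGB8 were made up differently in the 2 groups. ITGB5 was 26.9%, 28.1% and 26.2% of their summed FPKM in the control libraries and 38.4%, 36.1% and 39.2% in the overexpression libraries. The groups were 10.8 percentage points apart in the mean, and between 10.1 and 11.7 points apart when any library was left out. ITGB8 was 67.9% to 69.4% of the sum in control cells and 55.3% to 59.9% in overexpressing cells. ITGB1, which can also pair with ITGAV, is not part of this sum. The ratio of ITGB5 to ITGB8 was 0.396 ± 0.0178 and 0.661 ± 0.0542. These shares are made of the values given above and are no separate evidence. They do not depend on a scaling of the whole library.

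**Figure D3:**
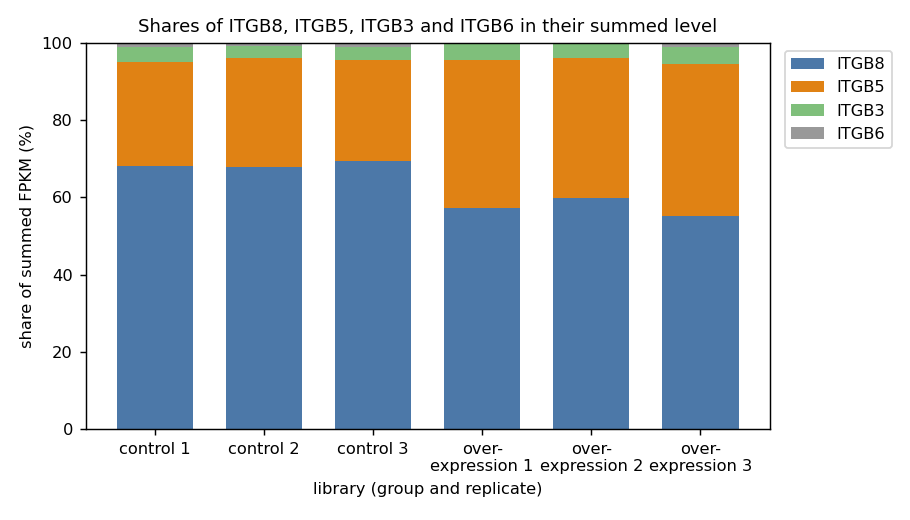
Share of ITGB8, ITGB5, ITGB3 and ITGB6 in their summed FPKM (vertical axis, %) in each of the 6 libraries (horizontal axis). ITGB5 takes 26.2% to 28.1% in the control libraries and 36.1% to 39.2% in the overexpression libraries.

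The laminin-binding integrins are led by ITGA3 and ITGB1, and by ITGB4, which pairs with ITGA6 and reaches intermediate filaments rather than actin. ITGB4 (ENSG00000132470, chromosome 17) measured 103, 98.6 and 84.0 FPKM in control cells and 69.2, 67.8 and 74.9 FPKM in overexpressing cells. The groups did not overlap, with control replicate 3 the nearest to the overexpression values. The means were 95.1 ± 9.77 and 70.6 ± 3.78 FPKM, a log2 fold change of -0.42 (SE 0.0768, 95% interval -0.59 to -0.25). ITGB4 had the lowest p of the tested chains, rank 80 of all tested genes, with an adjusted p of 0.0537 in limma. It passed the threshold when only genes averaging 5 FPKM or more were tested (limma adjusted p = 0.0420), after rescaling to TPM (limma adjusted p = 0.0415) and when libraries were weighted by quality (limma adjusted p = 0.0178). The limma adjusted p reached 0.266 at most over the alternatives. Its log2 fold change lay between -0.51 and -0.36 when any library was left out. GALK1 overlaps ITGB4 on the other strand, and the use of strand in counting is a point not given in the sources used here. GALK1 averaged 29.5 ± 1.42 and 26.9 ± 0.168 FPKM (log2 fold change -0.13, limma adjusted p = 0.395).

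ITGA6, the alpha partner of ITGB4, measured 13.3, 13.3 and 14.1 FPKM in control cells and 12.2, 14.7 and 13.5 FPKM in overexpressing cells. The groups overlapped, and the log2 fold change was -0.01 (95% interval -0.20 to 0.17, limma adjusted p = 0.962). ITGB4 was thus 7.01 ± 0.933 times the level of ITGA6 in control cells and 5.27 ± 0.584 times in overexpressing cells. ITGA3, whose pair with ITGB1 binds laminins that contain the alpha 5 or alpha 3 chain, measured 267, 270 and 265 FPKM in control cells and 274, 246 and 258 FPKM in overexpressing cells. The log2 fold change of ITGA3 was -0.05 (95% interval -0.16 to 0.07, limma adjusted p = 0.766). ITGA7, a laminin-binding chain best known from muscle, averaged 7.36 ± 0.358 and 6.84 ± 0.776 FPKM with overlap (limma adjusted p = 0.743). BLOC1S1 and METTL7B overlap ITGA7 on the other strand. BLOC1S1 was far more abundant than ITGA7, at 63.5 ± 5.93 and 62.0 ± 3.63 FPKM, and METTL7B averaged 2.82 ± 0.249 and 2.60 ± 0.0656 FPKM.

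ITGB1, the shared partner of many alpha chains, measured 195, 195 and 224 FPKM in control cells and 178, 196 and 194 FPKM in overexpressing cells. The groups overlapped, and the log2 fold change was -0.11 (95% interval -0.26 to 0.04, limma adjusted p = 0.541). ITGB1 was 52.7% ± 2.16 of the summed beta chains in control cells and 54.4% ± 2.14 in overexpressing cells. ITGB4 was 24.6% ± 3.47 and 20.3% ± 0.815 of that sum, with overlap, since control replicate 3 had 20.7%. ITGB5 was 6.07% ± 0.441 and 9.51% ± 0.908 of it, without overlap. ITGB8 was 15.4% ± 1.27 and 14.4% ± 1.11 of it, with overlap. Summed over all 8 beta chains the level was 388 ± 16.1 FPKM in control cells and 348 ± 7.32 FPKM in overexpressing cells.

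The remaining alpha partners of ITGB1 bind fibronectin, VCAM1 or collagen. ITGA4, which binds VCAM1 and fibronectin, measured 6.01, 7.94 and 8.16 FPKM in control cells and 8.61, 9.52 and 9.03 FPKM in overexpressing cells. Its groups did not overlap, and its log2 fold change was 0.27 (95% interval 0.02 to 0.53, limma adjusted p = 0.367), or 0.15 without control replicate 1. ITGA5, the chain of the classical fibronectin receptor, measured 18.6, 20.4 and 18.6 FPKM in control cells and 23.5, 19.7 and 21.1 FPKM in overexpressing cells. Overexpression replicate 2 lay within the control range, and the log2 fold change was 0.15 (95% interval -0.03 to 0.32, limma adjusted p = 0.491). The collagen-binding chain ITGA2 averaged 6.20 ± 1.26 and 7.08 ± 0.503 FPKM (limma adjusted p = 0.613). ITGA1, also collagen-binding, ranged from 0.45 to 1.78 FPKM in control cells and 1.14 to 1.45 FPKM in overexpressing cells. The gene PELO lies within ITGA1 on the same strand and was more abundant, at 14.2 ± 0.622 FPKM in control cells, so reads of the 2 genes may not be cleanly split.

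ITGAE, known as CD103, pairs with ITGB7 and binds E-cadherin. It measured 81.1, 82.3 and 82.0 FPKM in control cells and 75.2, 74.7 and 67.7 FPKM in overexpressing cells. Every overexpression value was below every control value, and the log2 fold change was -0.17 (95% interval -0.29 to -0.05, limma adjusted p = 0.225). ITGAE was the alpha chain with the second-highest level, at 17.4% ± 0.165 of the summed alpha chains in control cells. Its partner ITGB7 averaged 0.143 ± 0.132 FPKM in control cells and 0.230 ± 0.130 FPKM in overexpressing cells. HASPIN overlaps ITGAE on the other strand and averaged 11.8 ± 0.442 and 12.1 ± 0.716 FPKM (log2 fold change 0.03, limma adjusted p = 0.897).

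**Figure D4:**
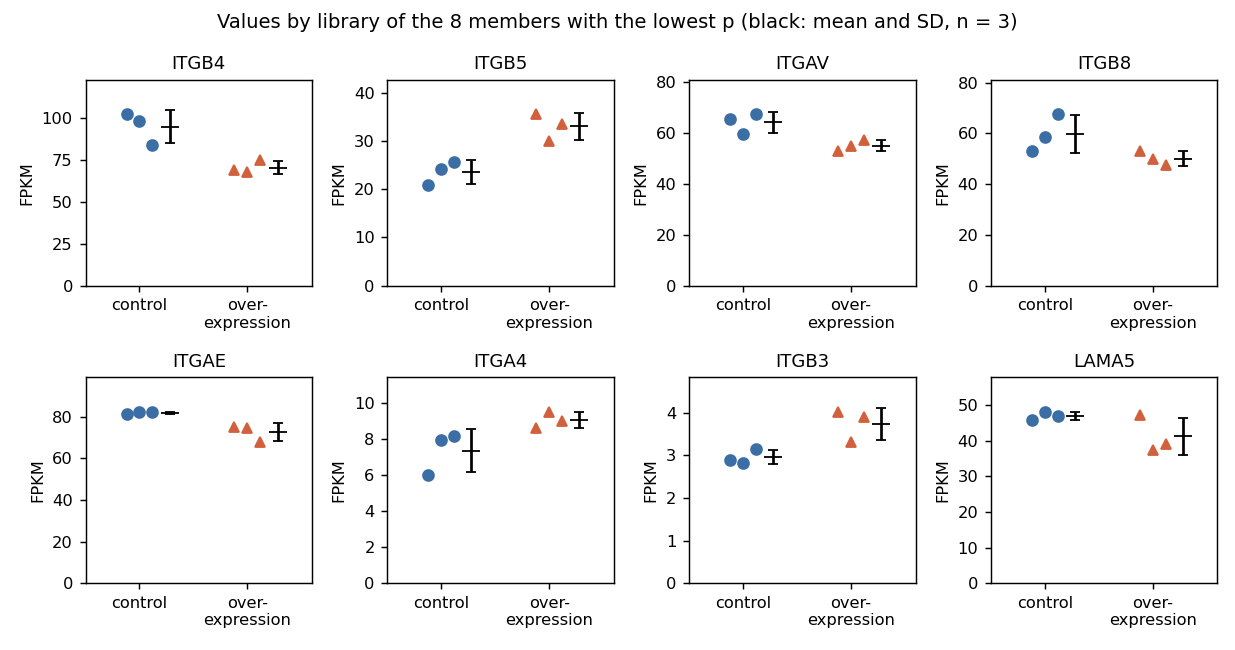
FPKM of the chains with the lowest p values in each control library and each overexpression library, with a panel per chain and the group mean and SD in black. ITGB4 is at 84.0 to 103 FPKM in control libraries and 67.8 to 74.9 FPKM in overexpression libraries, and ITGB5 at 20.9 to 25.6 and 30.1 to 35.6 FPKM.

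The laminin chains at 1 FPKM or more could form trimers with the alpha 2, alpha 4 or alpha 5 chain, a beta 1 or beta 2 chain and the gamma 1 chain. LAMA5, a widespread alpha chain of mature basement membranes, measured 45.8, 48.2 and 47.0 FPKM in control cells and 47.2, 37.5 and 39.2 FPKM in overexpressing cells. Overexpression replicate 1 lay within the control range and the other two lay below it. The log2 fold change of LAMA5 was -0.19 (95% interval -0.37 to -0.00), with an unadjusted limma p of 0.0459 and an adjusted p of 0.384. Without overexpression replicate 1 it was -0.29 and without overexpression replicate 2 it was -0.12. ADRM1, which overlaps LAMA5 on the other strand, averaged 165 ± 3.84 and 164 ± 4.65 FPKM. LAMA4, an alpha chain of endothelial laminins, measured 34.8, 39.7 and 30.3 FPKM in control cells and 36.0, 35.3 and 36.0 FPKM in overexpressing cells. The control values of LAMA4 lay on either side of the overexpression values, with a log2 fold change of 0.04 (95% interval -0.15 to 0.24, limma adjusted p = 0.885).

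LAMA2, the alpha chain known from muscle and peripheral nerve, was near the level for testing, at 2.58, 0.79 and 2.40 FPKM in control cells and 1.45, 1.28 and 0.85 FPKM in overexpressing cells. Control replicate 2 was the lowest of the 6, and the interval of the log2 fold change was wide, from -0.93 to 0.21 around -0.36 (limma adjusted p = 0.612). The log2 fold change was -0.68 without control replicate 2, -0.18 without control replicate 1 and -0.22 without control replicate 3. LAMB2 measured 62.6, 62.8 and 70.7 FPKM in control cells and 66.9, 65.9 and 65.2 FPKM in overexpressing cells, and LAMB1 57.7, 60.6 and 61.6 FPKM and 56.6, 57.6 and 59.3 FPKM. For these beta chains, LAMB1 being the more widespread form and LAMB2 that of synapses and the kidney filter, the log2 fold changes were 0.02 (95% interval -0.11 to 0.15, limma adjusted p = 0.938) for LAMB2 and -0.05 (95% interval -0.16 to 0.06, limma adjusted p = 0.726) for LAMB1. DLD, which overlaps LAMB1 on the other strand, averaged 72.3 ± 5.43 and 67.5 ± 6.06 FPKM. LAMC1, the gamma chain common to most laminins, measured 76.3, 64.2 and 75.8 FPKM in control cells and 74.0, 71.9 and 65.7 FPKM in overexpressing cells. Its log2 fold change was -0.03 (95% interval -0.20 to 0.14, limma adjusted p = 0.911), and it made up 99.0% ± 0.141 of the summed gamma chains in control cells. LAMC3 was at 0.49, 0.53 and 0.51 FPKM in control cells and 0.35, 0.50 and 0.48 FPKM in overexpressing cells.

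LAMB3 is a laminin beta chain of epithelia, where it is found with LAMA3. It measured 15.4, 14.8 and 14.7 FPKM in control cells and 13.8, 12.8 and 14.7 FPKM in overexpressing cells, with overlap (log2 fold change -0.11, 95% interval -0.28 to 0.05, limma adjusted p = 0.582). LAMA3 was far lower, with a mean of 0.0567 ± 0.0351 FPKM in control cells. LAMA1 and LAMB4 were also below the level for testing. LAMA1 was at 0.02 FPKM in each control library, and LAMB4 averaged 0.157 ± 0.0709 FPKM.

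ITGB2 with its alpha partners, and the platelet chain ITGA2B, were at or near the bottom of the range. ITGAE and ITGA4, whose levels are given above, lay higher. ITGB2, the shared beta chain of leukocyte integrins, was at 0.58, 1.22 and 0.47 FPKM in control cells and 0.98, 0.41 and 0.41 FPKM in overexpressing cells. Its alpha partners averaged, in control cells, 0.0633 FPKM for ITGAL, 0.160 FPKM for ITGAM, 0.0700 FPKM for ITGAX and 0 for ITGAD. ITGA2B, the platelet partner of ITGB3, was uneven among replicates, at 1.23, 0.11 and 0.69 FPKM in control cells and 0.10, 0.37 and 0.28 FPKM in overexpressing cells. The remaining chains below the level for testing were ITGA8, ITGA9, ITGA10 and ITGA11, with control means from 0.0033 to 0.183 FPKM. Of the 7 leukocyte markers, CD3E was listed at 0 in all libraries and 6 averaged under 1 FPKM, with sums of 1.56 to 1.98 FPKM in control libraries and 1.83 to 2.62 FPKM in overexpression libraries. PTPRC, the pan-leukocyte marker CD45, averaged 0.15 ± 0.0200 and 0.520 ± 0.130 FPKM without overlap, and its part in the levels of leukocyte integrins was not tested. The 4 platelet markers summed to at most 0.68 FPKM, with PF4 and GP9 at 0 in all libraries.

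The genes that carry integrin signals into the cell were described with a fixed list of 41, of which 34 were tested. None passed the threshold in limma, 5 (against 6.9% of all tested genes) were lower at an unadjusted p under 0.05 and 0 were higher (5.81%), and the median log2 fold change was -0.03. TNS3, a tensin that links integrin beta tails to actin, measured 158, 159 and 158 FPKM in control cells and 147, 136 and 145 FPKM in overexpressing cells (log2 fold change -0.15, limma adjusted p = 0.222). KANK2, which surrounds focal adhesions through talin, averaged 79.5 ± 2.33 and 72.7 ± 2.01 FPKM (limma adjusted p = 0.312). The most abundant genes of this list were the actin crosslinkers ACTN4, at 833 ± 5.89 and 778 ± 21.6 FPKM (limma adjusted p = 0.391), and FLNA, at 569 ± 7.63 and 563 ± 18.5 FPKM (limma adjusted p = 0.918).

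Of 25 integrin ligands, 14 were tested, 2 rose (against 0.315% of all tested genes), 0 fell (0.205%) and 12 did not pass the threshold, with a median log2 fold change of 0.13. At an unadjusted limma p under 0.05 there were 8 ligands (against 12.7% of all tested genes), 6 higher (5.81%) and 2 lower (6.9%). TGFBI, a matrix protein secreted in response to TGF-beta, averaged 27.7 ± 1.57 FPKM in control cells and rose to 53.9 ± 0.750 FPKM (a difference of 0.94 on the log2 scale, limma adjusted p = 0.000461). THBS1, thrombospondin 1, which binds CD47 and several integrins, averaged 98.3 ± 6.34 FPKM and rose to 138 ± 8.91 FPKM (0.49 on the log2 scale, limma adjusted p = 0.0242). The THBS1 call was lost when control replicate 1, 2 or 3 or overexpression replicate 1 or 3 was left out, with limma adjusted p between 0.0556 and 0.102. The same happened when genes under 1 FPKM were kept in the test (limma adjusted p = 0.183), when genes at 0 in all libraries were the only ones left out (limma adjusted p = 0.157) and without the variance trend (limma adjusted p = 0.125). The ligands with the highest levels were SPP1, osteopontin, a ligand of the vitronectin receptors, at 356 ± 7.21 and 395 ± 18.0 FPKM (limma adjusted p = 0.248), and COL1A2, a collagen I chain, at 364 ± 14.4 and 326 ± 32.3 FPKM (limma adjusted p = 0.382).

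Among 18 partners of laminin in basement membranes, 13 were tested, none passed the threshold in limma, 2 were lower at an unadjusted p under 0.05 (6.9% of all tested genes), and the median log2 fold change was -0.04. Those 2 were the collagen IV chains COL4A5, at 30.7 ± 1.47 and 25.7 ± 1.13 FPKM (log2 fold change -0.25, limma adjusted p = 0.141), and COL4A6, at 5.91 ± 0.5003 and 4.72 ± 0.240 FPKM (log2 fold change -0.27, limma adjusted p = 0.292). The most abundant were SPARC, a collagen-binding glycoprotein, at 1566, 1583 and 1402 FPKM in control cells and 1440, 1407 and 1486 FPKM in overexpressing cells, and LOXL2, a collagen-crosslinking oxidase, at 452 ± 33.2 and 412 ± 73.2 FPKM. All 13 genes of the list of other laminin receptors and integrin-associated membrane proteins were tested. None passed in limma, 6 had an unadjusted p under 0.05 (against 12.7% of all tested genes), 1 higher (5.81%) and 5 lower (6.9%), and the median log2 fold change was -0.08. BCAM, a receptor for the laminin alpha 5 chain, measured 20.2, 21.2 and 20.3 FPKM in control cells and 17.8, 14.4 and 16.8 FPKM in overexpressing cells (log2 fold change -0.32, limma adjusted p = 0.149). CD47, an integrin-associated protein and thrombospondin receptor, averaged 36.1 ± 0.794 and 42.9 ± 3.15 FPKM (log2 fold change 0.24, limma adjusted p = 0.157). RPSA, the ribosomal protein also known as a laminin receptor, averaged 951 ± 40.1 and 965 ± 64.0 FPKM, and CAV1, caveolin 1, 243 ± 6.11 and 248 ± 16.5 FPKM.

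**Figure D5:**
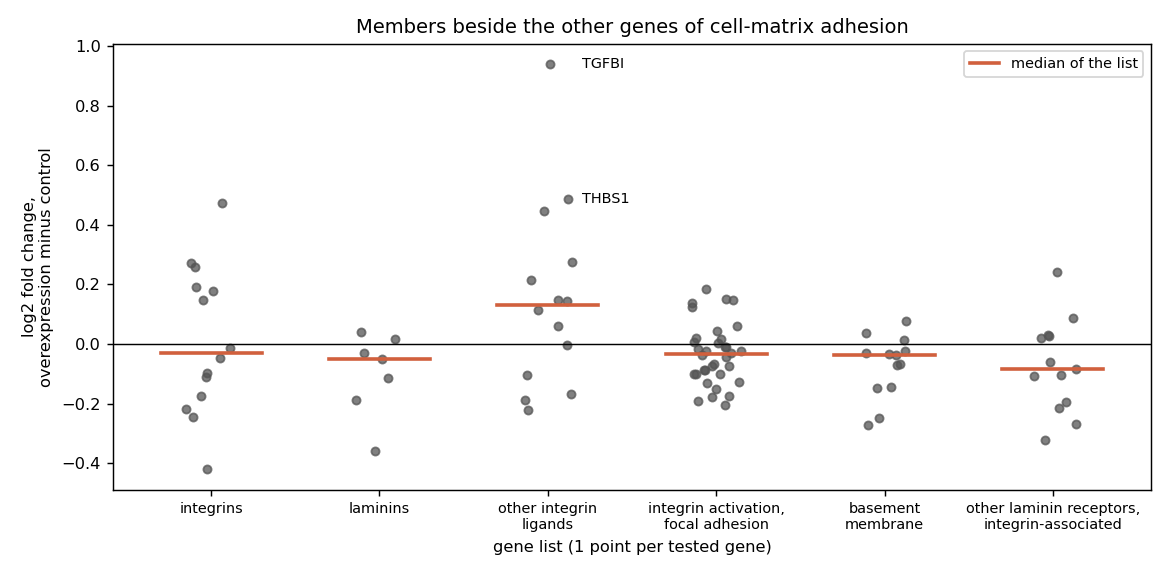
Log2 fold change of each tested gene (points) in the integrin and laminin chains and in the 4 lists of related genes, on the log2(FPKM + 1) scale, with the median of each set marked. TGFBI at 0.94 and THBS1 at 0.49 are the genes past the threshold.

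The 6 libraries were alike in overall measures: FPKM summed to 598683 to 621922 per library and 11668 to 11748 genes reached 1 FPKM. Read depth is unknown, and steps between low values put the libraries at 0.78 to 1.07 times the depth of control replicate 2. Genes listed at 0 made up 22.6% to 23.3% in control libraries and 21.5% to 21.9% in overexpression libraries. Of 8 astroglial and glioma markers, 6 reached 1 FPKM, while S100B and AQP4 did not. Their summed level was 4958 to 5336 FPKM in control libraries and 4694 to 4911 FPKM in overexpression libraries, a sum made up mostly of VIM and CD44. GFAP averaged 41.6 ± 6.06 and 21.6 ± 7.91 FPKM without overlap (limma adjusted p = 0.107). The groups overlapped for the other 5 tested markers. SOX9 was at 45.2 ± 1.58 and 45.8 ± 4.22 FPKM and SLC1A3 at 3.26 ± 0.378 and 4.17 ± 1.55 FPKM. The means of VIM, CD44 and NES were lower in overexpressing cells. They were 3840 ± 222 and 3581 ± 109 FPKM for VIM and 1178 ± 71.9 and 1088 ± 62.9 FPKM for CD44. For NES they were 81.5 ± 3.31 and 79.3 ± 1.59 FPKM. The part of the GFAP difference in the levels of the chains was not tested, and in bulk RNA fewer cells of a type and less RNA per cell cannot be told apart. Epithelial markers summed to 0.28 to 1.42 FPKM in control libraries and 0.13 to 1.49 FPKM in overexpression libraries, and the 3 listed endothelial markers to 0.57 to 0.81 and 0.41 to 0.58 FPKM.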

How the data were processed

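RNA sequencing of 6 U251 libraries was deposited as gene-level FPKM values, 1 table per library, rounded to 2 decimals; these are the values the authors deposited, and no read counts were used. Per the submitters' processing notes, the tools were edgeR, RSEM 1.3.1, Cufflinks 2.2.1, Bowtie and TopHat with build hg18, in roles not given in the sources used here. Libraries were, per the labels' protocols, stranded and poly(A)-selected, whereas the design text describes cytoplasmic RNA without that selection. Symbols were matched for 19447 of 20330 Ensembl genes, and gene types and overlaps were taken from GENCODE 29. In 5 tables an incomplete last line was not read.

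Groups were taken from the sample titles. Values were transformed to log2(FPKM + 1), so folds of low genes are understated. Genes present in every table and averaging 1 FPKM or more were tested, 11731 in all, of which 27 were XLOC loci; the test with no filter used Ensembl genes alone. The groups were compared with limma 3.58.1 (R 4.3.3) with trend, two-sided, with Benjamini-Hochberg adjustment and a threshold of 0.05. With 3 libraries a group, the smallest p of an exact permutation test is 0.1. The procedure was tested on simulated data, with changes larger than that of any tested chain and noise drawn separately for each gene. That simulation does not cover smaller changes or effects shared by a library. Summaries used numpy 2.4.6 and pandas 2.3.3 in Python 3.11.15. Shares, sums, ratios and pairs of chains are descriptions without a test.

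Every chain at 1 FPKM or more was named, and some genes of the lists are not reported here. Values in every library were given for the 12 chains with the lowest p and the 2 most abundant of each class. From each list the genes past the threshold, the 2 most abundant and the 2 with the lowest p were named. The members and lists were chosen with earlier results of these data known. Alternatives were other pseudocounts (0.1 and 0.5), other filters, rescaling to TPM, quantile normalization, a replicate block, no trend, array quality weights and leaving out each library. Leaving out genes at 0 in all libraries without another filter, and the promoter motifs, were chosen after seeing the data. No pair of libraries was a duplicate: 0.222% to 0.367% of values were identical within a pair.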

Additional observations from a re-analysis of the deposited data

How the results depend on the processing

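The call of 0 chains at an adjusted p under 0.05 became 2 (ITGB4 and ITGB5) with a filter of 5 FPKM and with array quality weights, and 1 (ITGB4) after rescaling to TPM, and it stayed 0 in the other alternatives run. Over all genes 61 passed, 37 higher and 24 lower. There were 22 (20 higher, 2 lower) with no filter, 1 (1 and 0) without trend, 197 (86 and 111) with array quality weights and 1 (1 and 0) with no filter but genes at 0 in all libraries left out. Of the 22 genes with no filter, 3 were among the 61, and all 61 were among the 197. Leaving out a library gave 1 to 60 in all, 1 to 48 higher and 0 to 12 lower. Of the related genes 1 in place of 2 passed with no filter, with the replicate block, without trend and with genes at 0 left out, and 1 to 2 when a library was left out. With the replicate number as a block, 19 genes passed (14 higher, 5 lower), THBS1 no longer did (limma adjusted p = 0.0598), and ITGB4 and ITGB5 had limma adjusted p of 0.115 and 0.114. Same-numbered libraries did not deviate together (correlations -0.0399, -0.0564 and 0.0490). This cannot show whether the libraries were made in pairs. Chains without overlap numbered 7 of the 21, where 18.9% of all tested genes did not overlap. Leaving out a library gave 8 to 11, where 25.8% to 33.2% of all tested genes did not overlap. There were 6 of 21 with quantile normalization and 6 of 18 with the filter of 5 FPKM. For these settings the share of all tested genes was not computed. Of the 21 chains, 16 kept their direction in all alternatives. The log2 fold changes that changed sign were LAMA4 at -0.044, LAMC1 at 0.015 and ITGA6 at 0.0083 with array quality weights, and RPSA at -0.041 with quantile normalization. Leaving out a library gave ITGA1 -0.052 to 0.42, LAMA4 -0.053 to 0.14, LAMC1 -0.11 to 0.020, LAMB2 -0.013 to 0.074, ITGA6 -0.076 to 0.049, RPSA -0.033 to 0.056, CAV1 -0.025 to 0.062 and FLNA -0.039 to 0.0080. The cause of these differences was not tested. FPKM carry no read totals, so the counting error of chains near 1 FPKM is unknown.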
